A study of Mus musculus with 10 samples.

Results

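The 8 genes described here encode the machinery that switches cholesterol and fatty acid synthesis on and off, and 1 enzyme that removes lipoprotein receptors. They are Srebf2 and Srebf1 (the transcription factors SREBP2 and SREBP1), Scap (their escort), Insig1 and Insig2 (the proteins that hold the escort back), Mbtps1 and Mbtps2 (the proteases that release the factors) and Mylip (the receptor-degrading ligase). They were chosen by symbol as a functional group, with the results of this comparison already known, so their differences between groups are given as descriptions. They are 8 of the 21869 gene symbols in a table of RNA sequencing counts. Each of the 8 was found on 1 line, and all 8 passed the filter on low counts.

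RNA was sequenced from live retinal cells of mice whose sample titles read WT. Flow cytometry took cells that carried CD11b and intermediate CD45, which the labels call microglia, and split them by CD36. The 5 CD36-positive libraries carry the numbers 1, 2, 3, 4 and 7, and the 5 CD36-negative libraries the numbers 1, 2, 4, 7 and 8. CD36 is a scavenger receptor that binds oxidised lipoproteins and fatty acids. The treatment protocol of all 10 samples describes an intravenous dose of 20 mg/kg sodium iodate (NaIO3), a compound toxic to the retinal pigment epithelium, or the same volume of phosphate-buffered saline (PBS), with eyes taken 7 days later. Which of these the sorted samples had received is not given in the labels, nor are strain and age. Nothing states that libraries came from separate animals, so p-values measure only the spread between these libraries, which may be technical.

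SREBPs are made as precursors in the membrane of the endoplasmic reticulum, bound to SCAP. When membrane sterol is low, SCAP carries them to the Golgi, where the site-1 protease (Mbtps1) and then the site-2 protease (Mbtps2) cut them and the released part enters the nucleus; when sterol is high, the INSIG proteins keep SCAP in the endoplasmic reticulum. SREBP2 mainly drives cholesterol synthesis and SREBP1 mainly fatty acid synthesis, and both factors act on genes of their own control system. Mylip, also called IDOL, is an E3 ubiquitin ligase that marks receptors of the low-density lipoprotein family for degradation and is induced by the liver X receptors (LXRs), which sense oxysterols. Phagocytes of the retina take in cholesterol with the debris they engulf. The counts measure messenger RNA, and cleavage of the precursors, the step that sets SREBP activity, was not measured.

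The promoters of 3 of the genes are shown because SREBPs are known to act on genes of their own control system, and LXR on the gene of the shorter SREBP1 isoform. Each is the stretch of 250 bases before a RefSeq start site (build GRCm38.p6), written on the strand of the gene. Capitals mark matches, on either strand, to TCACCC (the letters at the heart of sterol regulatory elements), to CCAAT (the box bound by NF-Y, a partner of SREBPs) and to the LXR element known from the promoter of the shorter SREBP1 isoform (12 letters with 1 left free). The Srebf2 stretch lies at chr15:82147019-82147268, plus strand, the Insig1 stretch at chr5:28071162-28071411, plus strand, and the Srebf1 stretch before its most downstream listed start at chr11:60210472-60210721, minus strand.
Srebf2: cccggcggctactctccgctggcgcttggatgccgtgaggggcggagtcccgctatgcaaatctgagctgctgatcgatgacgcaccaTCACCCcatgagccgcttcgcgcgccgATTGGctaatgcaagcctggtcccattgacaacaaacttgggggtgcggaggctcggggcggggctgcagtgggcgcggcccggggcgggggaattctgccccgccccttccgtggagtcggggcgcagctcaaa
Insig1: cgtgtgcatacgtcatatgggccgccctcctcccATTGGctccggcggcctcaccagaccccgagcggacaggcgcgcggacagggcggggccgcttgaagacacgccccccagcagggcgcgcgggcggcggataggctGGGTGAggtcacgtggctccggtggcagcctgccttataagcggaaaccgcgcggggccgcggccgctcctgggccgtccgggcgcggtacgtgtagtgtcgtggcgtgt
Srebf1, downstream start: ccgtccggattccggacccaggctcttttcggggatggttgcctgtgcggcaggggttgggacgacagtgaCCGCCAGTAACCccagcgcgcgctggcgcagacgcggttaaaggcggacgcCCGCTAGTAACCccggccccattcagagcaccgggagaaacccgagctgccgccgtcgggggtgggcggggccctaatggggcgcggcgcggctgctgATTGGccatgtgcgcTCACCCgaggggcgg
In the Srebf2 promoter TCACCC ended 157 bases before the start site, with a CCAAT box on the other strand that ended 131 bases before it. The match there extended to TCACCCCA, a match to the longer form TCACNCCA, which overlaps TCACCC. In the Insig1 promoter TCACCC lay on the other strand, 105 bases before the start. The Srebf1 stretch held both LXR element matches, written on the other strand, and a TCACCC 10 bases before the start.

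Over the 8 genes RefSeq lists 13 start sites, 3 for Srebf1, 3 for Insig2, 2 for Scap and 1 for each of the others. TCACCC was present in 5 of these 13 stretches, 2 of the 3 of Insig2 and 1 each of Srebf2, Srebf1 and Insig1, so in those of 4 genes, against 13.8% of the 32851 stretches of the same length before mouse start sites. TCACNCCA was present in 1, that of Srebf2, against 3.67% of all. CCAAT was present in 6, against 33.8% of all, among them 3 copies before Mylip, and the E-box CACGTG was present in 2, those of Insig1 and of 1 Scap start, against 6.02% of all. The LXR element was present in 2 stretches of all, 0.00609%, of which the Srebf1 stretch is 1. Its letters were taken from that promoter, so the match there was fixed in advance. A match is a match of letters, not a measured binding site.

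Srebf2 also carries a microRNA gene in an intron. Its mature form miR-33-5p (chr15:82198127-82198147, plus strand, RefSeq) is known to repress Abca1, the sterol exporter, through sites in the messenger's untranslated end. The sequences show the seed of the microRNA (bases 2 to 8, in capitals) and the 30 bases of the Abca1 messenger (chr4:53033783-53033812, minus strand) that hold 3 matches to it, CAATGCA, in capitals, of which 2 overlap.
miR-33-5p: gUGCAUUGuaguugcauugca
Abca1 messenger: tattCAATGCAATGCActtCAATGCAacga
The microRNA itself was not analysed here, and its part in the level of Abca1 was not tested. The share of all messengers with such matches was not computed.

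Libraries held totals of 5001692 to 13250984 counts, and the lowest count of any of the 8 genes was 63 (Insig2 in CD36-positive library 1). CD36-positive libraries 1 and 3 had the lowest totals, 5001692 and 6904523, and stood apart from the others on principal components of 15.9% and 12.3% of the variance, while the leading one (35.9%) separated the groups. Levels are given as CPM (counts scaled to a common library size) on TMM-scaled library sizes, and differences come from edgeR's quasi-likelihood test over 11596 genes, with a threshold of 0.05 on the adjusted p. Of all genes tested, 4.74% were called lower and 2.61% higher in CD36-positive cells, 7.36% in either direction. Cd36 itself had a log2 fold change of 2.12, and the 10 microglia markers (P2ry12, Tmem119 and others) summed to 6901 to 15378 CPM in CD36-positive libraries and 6742 to 15280 CPM in CD36-negative ones, with 0 of 10 called by edgeR, DESeq2 or limma (1 had an unadjusted edgeR p under 0.05, in the higher direction). With an adjustment for transcript length and GC content 451 genes were called lower and 614 higher, against 550 and 303 without it.

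Of the 8 genes, 1 was called lower in CD36-positive cells, Srebf2, beside the 4.74% of all genes called lower. None was called higher by edgeR, beside 2.61% of all genes, and 0 had an unadjusted p under 0.05 in that direction; DESeq2 and limma also called 0 higher, and each called Srebf2 lower. For all genes the shares lower and higher were 10.8% and 10.6% by an unadjusted edgeR p under 0.05, 6.09% and 4.35% by DESeq2 over the 14145 genes it tested, and 5.23% and 2.85% by limma. Srebf2 was the 1 gene of the 8 whose groups did not overlap, where 5.83% of all genes had every CD36-positive library below every CD36-negative one and 2.59% had every one above, 8.42% in either direction. The median log2 fold change of the 8 genes was -0.22, against 0.02 over all genes tested.

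**Figure D1:**
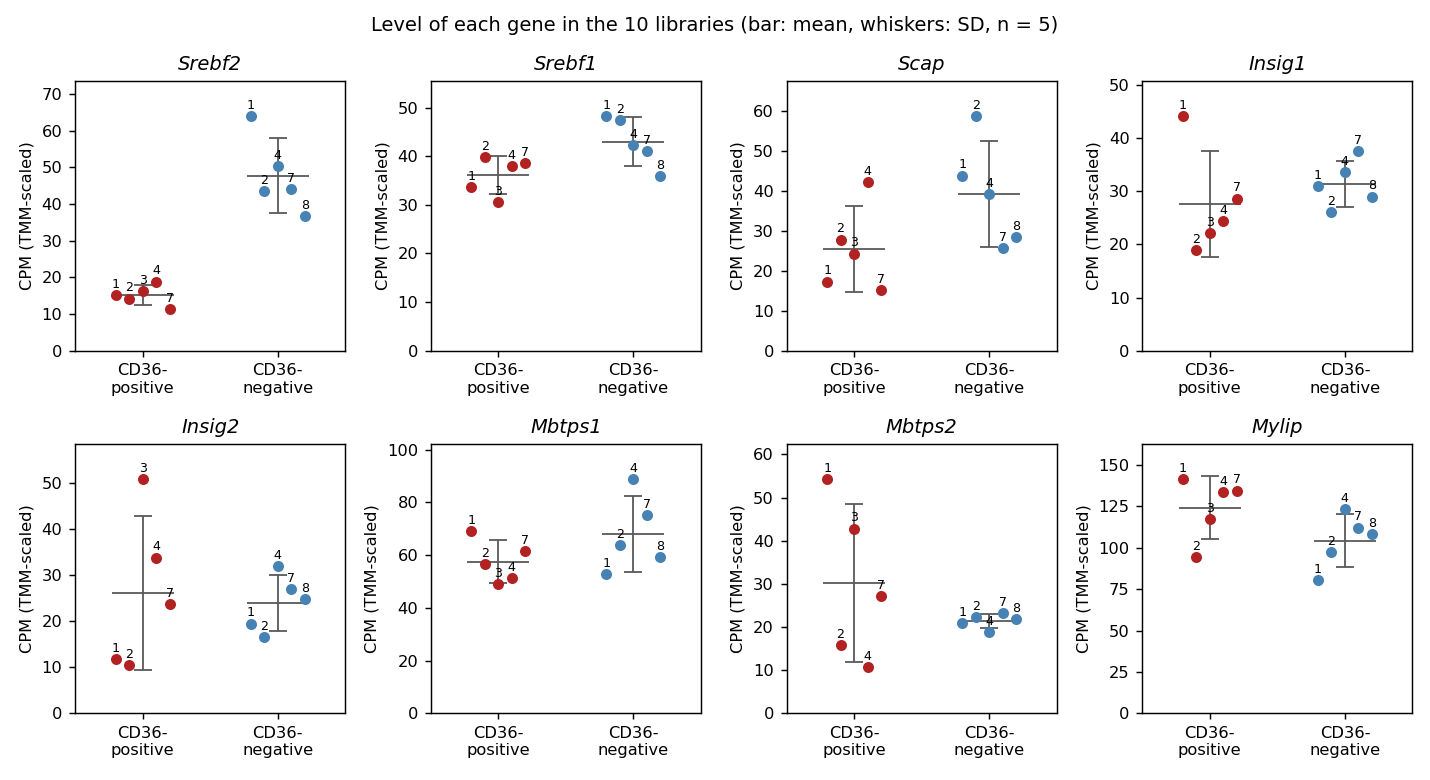
Level of each of the 8 genes in TMM-scaled CPM (vertical axis, from 0) in 5 CD36-positive (red) and 5 CD36-negative (blue) libraries; the digits are library numbers, the bar is the mean and the whiskers are the SD. Srebf2 lies between 11.3 and 18.8 CPM in CD36-positive libraries and between 36.8 and 63.9 CPM in CD36-negative ones, and the groups overlap for the other 7 genes.

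Srebf2 lies on chromosome 15 (chr15:82147181-82205379, plus strand, GRCm38). It had 15.1, 14.2, 16.2, 18.8 and 11.3 CPM in CD36-positive libraries 1, 2, 3, 4 and 7. In CD36-negative libraries 1, 2, 4, 7 and 8 it had 63.9, 43.5, 50.4, 44.0 and 36.8 CPM. The highest CD36-positive library, number 4, lay below the lowest CD36-negative one, number 8, so the messenger for the cholesterol-directed factor was low in each CD36-positive library. The means were 15.1 ± 2.73 and 47.7 ± 10.3 CPM (SD, n = 5 each), and the CD36-positive level was 31.7% of the CD36-negative one. The log2 fold change was -1.66 (SE 0.24, 95% interval -2.16 to -1.16, edgeR adjusted p = 0.000214). Without CD36-positive libraries 1 and 3 it was -1.70 (edgeR adjusted p = 0.000986). In these bulk libraries fewer cells of a type that expresses Srebf2 and less Srebf2 RNA per cell cannot be told apart.

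Marker genes of other cell types differed between the groups beside Srebf2. Of 28 neutrophil, T and NK cell and dendritic cell markers, 26 were in the table and 21 were tested. Of these 21, 20 were lower and 0 higher in CD36-positive cells. Over all genes 4.74% were called lower and 2.61% higher, shares that stand beside every count of called markers here. Summed, the 26 markers reached 113 to 208 CPM in CD36-positive libraries and 1141 to 1735 CPM in CD36-negative ones. Retnlg, Ly6g and G0s2, which mark neutrophils, were at 0 in every CD36-positive library. Of these, Retnlg and G0s2 were tested. They passed the filter on low counts only through the CD36-negative libraries and could not be called higher. For such genes the direction was fixed in advance. The T and NK cell markers summed to 0 to 7.45 CPM in CD36-positive libraries and 42.0 to 293 CPM in CD36-negative ones. Of 9 monocyte markers 6 were lower (468 to 973 CPM summed in CD36-positive libraries and 1251 to 2226 CPM in CD36-negative ones). Of 10 immediate early genes, which respond to handling of cells, 7 were lower (843 to 1404 CPM in CD36-positive libraries and 1856 to 2619 CPM in CD36-negative ones). Among 8 tested photoreceptor markers 2 were lower (101 to 841 CPM in CD36-positive libraries and 354 to 2171 CPM in CD36-negative ones). The log2 fold changes of all 8 lay below 0 (median -1.68), and 6 were lower at an unadjusted edgeR p under 0.05. DESeq2 called 1 of them lower and limma 2. Of 8 tested markers of border and perivascular macrophages, the long-lived macrophages at the edges of nervous tissue, Pf4 and Ms4a7 were higher and F13a1 was lower. Their sums were 848 to 1133 CPM in CD36-positive libraries and 330 to 909 CPM in CD36-negative ones. Yet 5 of these 8 had a log2 fold change below 0 (median -0.76). At an unadjusted edgeR p under 0.05, 4 were lower (Cbr2, Folr2, F13a1 and Cd163) and 2 higher. DESeq2 called 3 lower and 2 higher. Of 3 tested endothelial and pericyte markers Pecam1 and Flt1 were lower, with sums that did not overlap (5.58 to 11.6 CPM in CD36-positive libraries and 25.2 to 32.3 CPM in CD36-negative ones) and Cldn5 at 0 in every CD36-positive library. Of 5 tested Müller glia and astrocyte markers Clu was lower and Kcnj10 higher (134 to 192 CPM in CD36-positive libraries and 121 to 209 CPM in CD36-negative ones). Neither of 2 tested B cell markers (19.9 to 34.2 CPM in CD36-positive libraries and 10.8 to 35.3 CPM in CD36-negative ones) nor the 1 tested marker of the retinal pigment epithelium (3.72 to 9.49 CPM in CD36-positive libraries and 2.19 to 22.6 CPM in CD36-negative ones) was called by edgeR, DESeq2 or limma, and none had an unadjusted edgeR p under 0.05. The leukocyte marker level did not overlap between the groups, so its part in the Srebf2 difference and the part of CD36 status cannot be told apart; with that level in the model Srebf2 was at -0.69 (edgeR adjusted p = 0.943) and 0 of all 11596 genes were called. The part of the monocyte, immediate early, photoreceptor, border macrophage, endothelial and glial genes was not tested.

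Srebf1, the fatty-acid-directed factor, lies on chromosome 11 (chr11:60199089-60222581, minus strand). It had 33.7, 39.7, 30.5, 38.0 and 38.6 CPM in CD36-positive libraries 1, 2, 3, 4 and 7. CD36-negative libraries 1, 2, 4, 7 and 8 had 48.2, 47.3, 42.2, 41.0 and 35.9 CPM. The groups overlapped through CD36-negative library 8, which lay below CD36-positive libraries 2, 4 and 7. Srebf1 had a log2 fold change of -0.25 (SE 0.19, interval -0.65 to 0.15, edgeR adjusted p = 0.492), an interval that does not reach the value of Srebf2. The counts pool the isoforms of SREBP1 and all 3 start sites. Rai1 overlaps Srebf1 on the opposite strand and had 106 to 197 counts in CD36-positive and 164 to 213 in CD36-negative libraries; no source used here states whether counting used strand, so reads of the shared stretch cannot be told apart.

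The balance between both SREBP genes within a library does not depend on the scaling between libraries. The ratio of Srebf2 to Srebf1 counts was 0.448, 0.358, 0.531, 0.496 and 0.294 in CD36-positive libraries 1, 2, 3, 4 and 7. It was 1.33, 0.919, 1.19, 1.07 and 1.02 in CD36-negative libraries 1, 2, 4, 7 and 8. On the log2 scale the mean ratio was -1.27 ± 0.35 in CD36-positive and 0.13 ± 0.20 in CD36-negative libraries (SD, n = 5 each), and the groups did not overlap. CD36-negative cells thus held near equal counts of both messengers, while each CD36-positive library held more Srebf1 than Srebf2 counts. The ratio is built from the same counts as the levels of both genes, so it restates their difference and is no independent evidence.

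Scap, which binds the SREBP precursors and carries the sterol-sensing domain, lies on chromosome 9 (chr9:110333288-110384950, plus strand). It had 17.3, 27.9, 24.4, 42.3 and 15.2 CPM in CD36-positive libraries 1, 2, 3, 4 and 7. CD36-negative libraries 1, 2, 4, 7 and 8 had 43.9, 58.8, 39.4, 25.8 and 28.6 CPM. CD36-positive library 4 reached the range of the CD36-negative libraries, and CD36-negative libraries 7 and 8 reached that of the CD36-positive ones. Scap had a log2 fold change of -0.63 (SE 0.30, interval -1.27 to 0.01, edgeR adjusted p = 0.247), the most negative of the 8 genes after Srebf2, and it did not pass the threshold. Without CD36-positive library 4 it was -0.89 (edgeR adjusted p = 0.0805), still above the threshold. The log2 ratio of Srebf2 to Scap counts averaged -0.67 ± 0.40 in CD36-positive and 0.32 ± 0.45 in CD36-negative libraries (SD, n = 5 each), and overlapped through CD36-negative library 2 at -0.43.

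**Figure D2:**
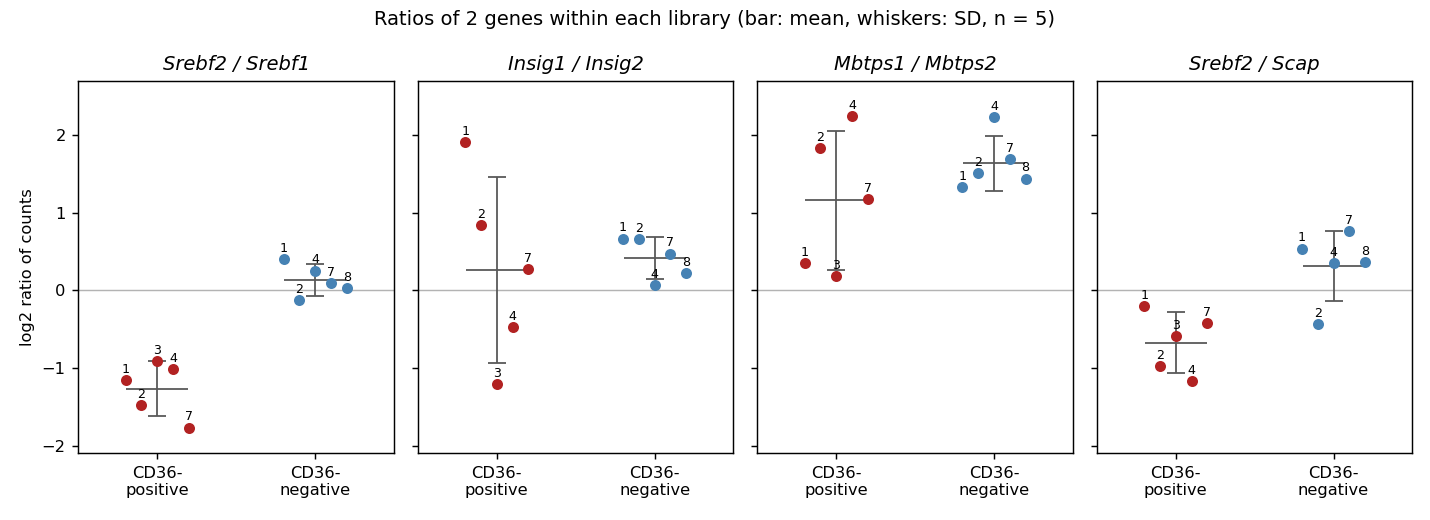
Log2 ratio of the counts of 2 genes within each library (vertical axis), for the 5 CD36-positive (red) and 5 CD36-negative (blue) libraries; the digits are library numbers, the bar is the mean and the whiskers are the SD. The ratio of Srebf2 to Srebf1 separates the groups at -1.77 to -0.91 in CD36-positive and -0.12 to 0.41 in CD36-negative libraries, and the other 3 ratios overlap.

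Insig1, the INSIG gene that SREBPs themselves induce, lies on chromosome 5 (chr5:28071363-28078662, plus strand). It had 44.1, 18.9, 22.1, 24.3 and 28.6 CPM in CD36-positive libraries 1, 2, 3, 4 and 7, and 31.0, 26.1, 33.5, 37.5 and 29.0 CPM in CD36-negative libraries 1, 2, 4, 7 and 8. CD36-positive library 1, the shallowest, was the highest of all 10, while CD36-positive libraries 2, 3 and 4 lay below every CD36-negative one. The log2 fold change was -0.19 (SE 0.25, interval -0.73 to 0.35, edgeR adjusted p = 0.730). Without CD36-positive library 1 it was -0.43 (edgeR adjusted p = 0.303).

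Insig2, whose product also retains SCAP, lies on chromosome 1 (chr1:121304353-121332589, minus strand). It had 11.7, 10.5, 50.9, 33.8 and 23.7 CPM in CD36-positive libraries 1, 2, 3, 4 and 7, and 19.5, 16.5, 32.0, 26.9 and 24.8 CPM in CD36-negative libraries 1, 2, 4, 7 and 8. The CD36-positive libraries held both the lowest and the highest values of all 10. The log2 fold change was 0.13 (SE 0.38, interval -0.67 to 0.92, edgeR adjusted p = 0.886), and without CD36-positive library 3 its sign turned, at -0.26 (edgeR adjusted p = 0.763). The log2 ratio of Insig1 to Insig2 counts was 1.91 in CD36-positive library 1 and -1.20 in CD36-positive library 3, the extremes of the 10, and averaged 0.27 ± 1.20 in CD36-positive and 0.42 ± 0.27 in CD36-negative libraries (SD, n = 5 each). The 2 libraries that stood apart thus carried opposite balances of the INSIG genes.

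Mbtps1, the site-1 protease, lies on chromosome 8 (chr8:119508156-119558735, minus strand). It had 69.2, 56.4, 48.9, 51.2 and 61.4 CPM in CD36-positive libraries 1, 2, 3, 4 and 7, and 52.7, 63.8, 88.9, 75.2 and 59.3 CPM in CD36-negative libraries 1, 2, 4, 7 and 8. The groups overlapped, with the highest values in CD36-negative libraries 4 and 7. The log2 fold change was -0.24 (SE 0.20, interval -0.66 to 0.17, edgeR adjusted p = 0.522).

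Mbtps2, the site-2 protease, which makes the second cut inside the membrane, lies on the X chromosome (chrX:157535371-157598715, minus strand). It had 54.3, 15.8, 42.8, 10.8 and 27.1 CPM in CD36-positive libraries 1, 2, 3, 4 and 7. CD36-negative libraries 1, 2, 4, 7 and 8 stayed close together, at 20.9, 22.4, 18.9, 23.3 and 21.8 CPM. CD36-positive libraries 1 and 3, the shallow ones, were the highest of all 10, and CD36-positive libraries 4 and 2 were the lowest. Mbtps2 had a log2 fold change of 0.49 (SE 0.36, interval -0.27 to 1.24, edgeR adjusted p = 0.473), and without CD36-positive libraries 1 and 3 its sign turned, at -0.26 (edgeR adjusted p = 0.726). CD36-positive libraries 1 and 3 also had the highest sums of the Y-linked genes, 307 and 324 CPM, against 18.4 to 207 CPM in the other CD36-positive and 23.7 to 206 CPM in the CD36-negative libraries; with the Y-linked level in the model Mbtps2 was at 0.38 (edgeR adjusted p = 0.532). Yy2, a gene within Mbtps2 on the same strand, had 29 to 122 counts in CD36-positive and 48 to 154 in CD36-negative libraries, and reads shared between both genes are uncertain.

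Mylip lies on chromosome 13 (chr13:45389742-45412022, plus strand). It had 141, 94.3, 117, 133 and 134 CPM in CD36-positive libraries 1, 2, 3, 4 and 7. CD36-negative libraries 1, 2, 4, 7 and 8 had 80.5, 97.3, 123, 112 and 108 CPM. CD36-positive libraries 1, 4 and 7 lay above every CD36-negative one, and CD36-positive library 2 lay among the lowest. Mylip had a log2 fold change of 0.25 (SE 0.18, interval -0.13 to 0.63, edgeR adjusted p = 0.458).

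**Figure D3:**
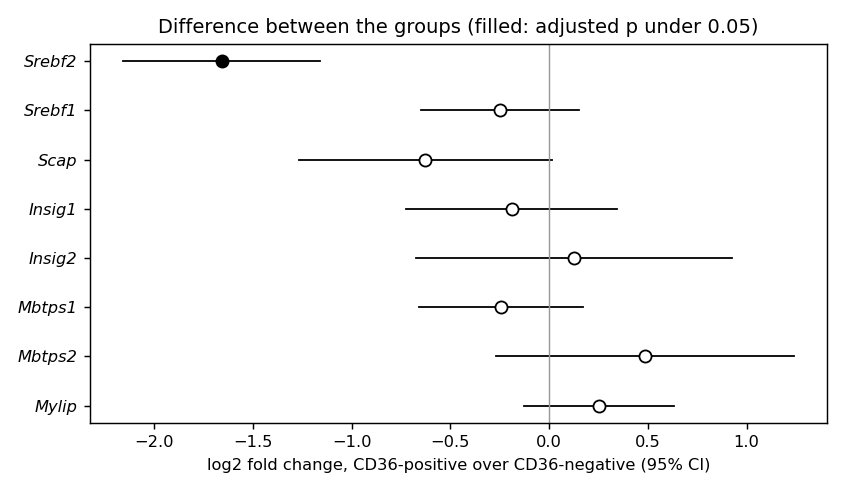
Log2 fold change of CD36-positive over CD36-negative cells (horizontal axis, 0 marked) for the 8 genes; points are edgeR estimates, lines are 95% intervals and the filled point passed the threshold on the adjusted p. Srebf2 stands at -1.66 with an interval of -2.16 to -1.16, and the intervals of the other 7 genes include 0.

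The spread within a group differed from gene to gene. The coefficient of variation of the CPM was 64.3% in CD36-positive and 25.6% in CD36-negative libraries for Insig2, and 60.5% in CD36-positive and 7.72% in CD36-negative libraries for Mbtps2. For Insig1 it was 35.8% in CD36-positive and 13.9% in CD36-negative libraries. Srebf1 was the steadiest gene in CD36-positive libraries, at 10.7%, and had 11.7% in CD36-negative ones, while Srebf2 had 18.1% in CD36-positive and 21.5% in CD36-negative libraries. By Dixon's 95% criterion for 5 values (the gap to the nearest library over the group's range) 0 of the 16 sets of 1 gene in 1 group held a library set apart.

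Levels of different genes were compared per length, as TPM (counts per transcript length, scaled to a common total) from the counts and the longest coding transcript of each gene. In CD36-positive libraries the mean order was Mylip (77.9 TPM), Mbtps1 (25.5), Insig1 (20.0), Insig2 (18.5), Srebf1 (16.0), Mbtps2 (12.5), Scap (11.4) and Srebf2 (5.72). In CD36-negative libraries it was Mylip (64.4 TPM), Mbtps1 (29.7), Insig1 (22.2), Srebf1 (18.9), Srebf2 (17.8), Scap (17.4), Insig2 (16.9) and Mbtps2 (8.48). Mylip was the highest of the 8 in 5 of 5 libraries of each group. Srebf2 was the lowest in 4 of 5 CD36-positive libraries (Mbtps2 in the other 1), whereas Mbtps2 was the lowest in 5 of 5 CD36-negative libraries.

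Some neighbours in these orders held their place in every library and others did not. In CD36-positive libraries Mylip exceeded Mbtps1, and Scap exceeded Srebf2, in 5 of 5, but Insig1 exceeded Insig2 in 3 of 5, Insig2 exceeded Srebf1 in 2 of 5, and Srebf1 exceeded Mbtps2 and Mbtps2 exceeded Scap in 3 of 5 each. In CD36-negative libraries Mylip exceeded Mbtps1, Mbtps1 exceeded Insig1 and Insig2 exceeded Mbtps2 in 5 of 5, but Srebf1 exceeded Srebf2 in 3 of 5, Srebf2 exceeded Scap in 4 of 5 and Scap exceeded Insig2 in 2 of 5. The middle places are therefore not told apart by these libraries, while Mylip at the top holds in both groups.

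**Figure D4:**
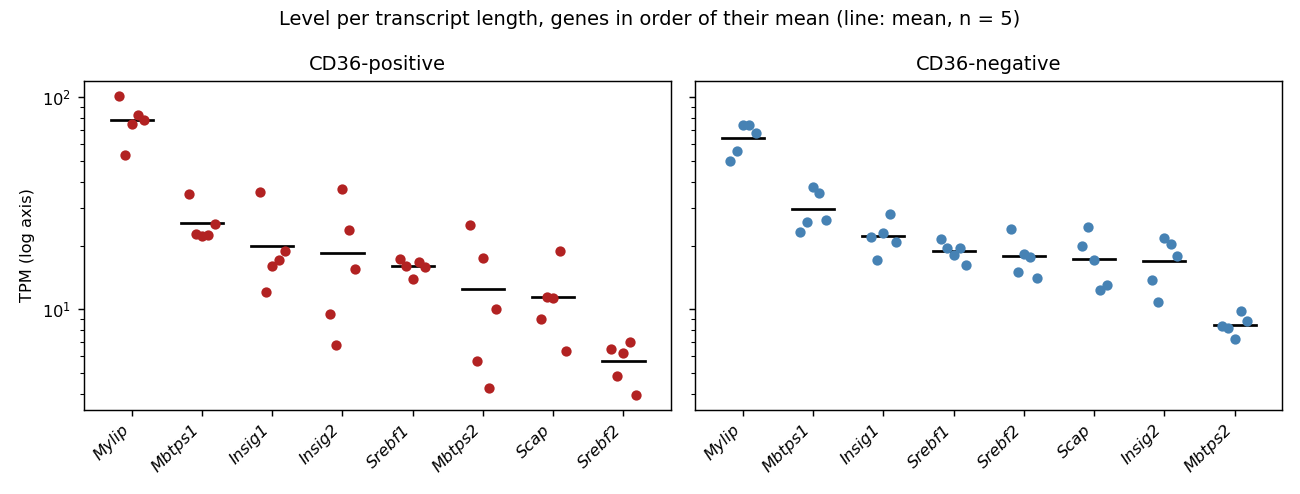
Level per transcript length in TPM (vertical log axis) of the 8 genes, in the order of their means, in CD36-positive (left, red) and CD36-negative (right, blue) libraries; points are the 5 libraries of each group and lines are means. Srebf2 is last in CD36-positive cells at a mean of 5.72 TPM and between Srebf1 and Scap in CD36-negative cells at 17.8 TPM.

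The genes that SREBP2 drives were looked at as a list of cholesterol synthesis enzymes, of which 20 of 21 were analysed here. These 20 include Stard4, which is not a synthesis enzyme but was counted with them (log2 fold change -1.39, edgeR adjusted p = 0.194). In CD36-positive cells 3 of the 20 were lower, 0 were higher and 17 did not pass, beside 4.74% of all genes called lower. Their median log2 fold change was -0.69, against 0.02 over all genes tested, and 17 of 20 lay below 0, against 48.8% of all genes. By an unadjusted edgeR p under 0.05 12 were lower and 0 higher, beside 10.8% and 10.6% of all genes. DESeq2 called 6 lower and 0 higher, beside 6.09% and 4.35%, and limma 4 lower and 0 higher, beside 5.23% and 2.85%. The list shares its direction with a result already known when the 8 genes were proposed and is no independent evidence.

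Summed over the list, enzyme messengers reached 263, 424, 392, 378 and 397 CPM in CD36-positive libraries 1, 2, 3, 4 and 7. In CD36-negative libraries 1, 2, 4, 7 and 8 the sums were 635, 523, 638, 460 and 580 CPM. Each CD36-positive sum lay below each CD36-negative one, as for Srebf2, and the leukocyte markers were low in the same 5 libraries. Within groups, over 10 libraries, Srebf2 followed the mean log2 CPM of the list at Pearson's r 0.29 (Spearman's rho 0.36). Against that of the leukocyte markers r was 0.21 (rho 0.27). The parallel described here is the one between the 2 groups, and with 10 libraries these values cannot tell whether it also holds within them.

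Cyp51, which removes a methyl group from lanosterol, had 25.6 ± 7.39 CPM in CD36-positive libraries and 60.3 ± 9.38 CPM in CD36-negative ones (SD, n = 5 each; log2 fold change -1.23, SE 0.23, edgeR adjusted p = 0.00271). Cyp51 was the 1 enzyme called in each of the 10 fits that left out a library. Mvd, which completes the isoprene unit, had 6.24 ± 3.89 CPM in CD36-positive libraries and 20.7 ± 6.15 CPM in CD36-negative ones (log2 fold change -1.71, SE 0.50, edgeR adjusted p = 0.0458). Sqle, squalene epoxidase, had 5.47 ± 5.25 CPM in CD36-positive libraries and 27.3 ± 15.3 CPM in CD36-negative ones (log2 fold change -2.29, SE 0.63, edgeR adjusted p = 0.0358), with 0.143 CPM in CD36-positive library 3 and 13.9 CPM in CD36-positive library 7. Mvd and Sqle were each called in 4 of the 10 fits that left out a library. Mvd stood at -1.41 (edgeR adjusted p = 0.0651) with the adjustment for transcript length and GC content, and it was not called when CD36-positive library 2 or 3 was left out, nor without CD36-negative library 1, 4, 7 or 8 (log2 fold changes -1.76 to -1.62, edgeR adjusted p 0.0711 to 0.119). Sqle was not called when CD36-positive library 1, 2 or 4 was left out, nor without CD36-negative library 1, 2 or 4 (-2.35 to -1.98, edgeR adjusted p 0.0546 to 0.128) or without both CD36-positive libraries 1 and 3 (-1.74, edgeR adjusted p = 0.0530), and without CD36-positive library 7 it was at -3.0 (edgeR adjusted p = 0.00714). Only 1 enzyme of the list was called without CD36-negative library 1 and only 1 without CD36-negative library 4.

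The list of fatty acid synthesis enzymes, driven mainly by SREBP1, also holds Thrsp and Mid1ip1, which are not enzymes but were counted with them. It gave 0 lower, 0 higher and 14 not passing among 14 tested of 17, with a median of -0.26. Of all genes 4.74% were called lower and 2.61% higher. At an unadjusted edgeR p under 0.05 3 were lower and 1 higher, beside 10.8% and 10.6% of all genes. Limma called 0 in either direction, beside 5.23% and 2.85%. DESeq2, with its own filter, called 2 of these 14 lower (Fasn and Acss2) and, outside the 14, also Scd1 and Fads2, with 0 higher. Its shares over all genes were 6.09% lower and 4.35% higher. The smallest p belonged to Fasn, fatty acid synthase, with 17.5 ± 5.59 CPM in CD36-positive libraries and 33.6 ± 8.57 CPM in CD36-negative ones (log2 fold change -0.93, edgeR adjusted p = 0.0528). Next was Fads1, a fatty acid desaturase, with 85.1 ± 9.57 CPM in CD36-positive libraries and 59.6 ± 11.1 CPM in CD36-negative ones (0.51, edgeR adjusted p = 0.117). Fasn and Fads1, which stand in the same list, thus had values on opposite sides of 0.

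The steps that move and degrade the SREBP and INSIG proteins showed no calls, beside 4.74% of all genes called lower and 2.61% higher. Of 12 genes of INSIG and SCAP turnover and sterol sensing 0 were called in either direction (median -0.08), and the smallest p belonged to Tmem97 (log2 fold change 0.52, edgeR adjusted p = 0.331) and Vcp (-0.32, edgeR adjusted p = 0.388), the ATPase that pulls proteins out of the membrane. Of 10 genes of the COPII coat, which carries SCAP to the Golgi, 0 were called (median -0.04), with Sec24a at 0.64 and Sec31a at -0.30 having the smallest p (edgeR adjusted p = 0.327 and 0.393). Neither of these lists had a gene with an unadjusted p under 0.05 or a call by DESeq2 or limma.

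Of 6 tested substrates that share the site-1 protease with SREBPs, or are matured by it, 0 were called (median 0.14). Atf6, a sensor of the unfolded protein response, was at 0.52 (edgeR adjusted p = 0.142), the 1 gene of the list with an unadjusted p under 0.05, and Atf6b at -0.37 (edgeR adjusted p = 0.347); DESeq2 and limma called 0. Of 8 nuclear partners and turnover genes of SREBPs 0 were called (median 0.02). Among all genes 7.36% were called in either direction. Sp1 was at 0.51 (edgeR adjusted p = 0.314) and Nfya, a subunit of the factor that binds CCAAT, at 0.59 (edgeR adjusted p = 0.420), and no gene of the list had an unadjusted p under 0.05 or a call by DESeq2 or limma.

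Around Mylip, the list of LXR and lipoprotein receptor genes had 1 gene lower, 1 higher and 6 not passing among 8 (median -0.10), beside 4.74% of all genes called lower and 2.61% higher. Abca1, the sterol exporter whose miR-33 seed matches are given with the sequences, was higher, at 558, 299, 290, 236 and 267 CPM in CD36-positive libraries 1, 2, 3, 4 and 7 and at 193, 163, 109, 148 and 138 CPM in CD36-negative libraries 1, 2, 4, 7 and 8. Its groups did not overlap, and CD36-positive library 1 was the highest. The means were 330 ± 130 CPM in CD36-positive libraries and 150 ± 31.1 CPM in CD36-negative ones (SD, n = 5 each; log2 fold change 1.14, SE 0.23, edgeR adjusted p = 0.00520), and Abca1 was called in 10 of 10 fits that left out a library. Nr1h2, which encodes LXR-beta, was lower, at 36.6 ± 9.75 CPM in CD36-positive libraries and 76.0 ± 20.7 CPM in CD36-negative ones (log2 fold change -1.05, SE 0.24, edgeR adjusted p = 0.0104), and at -0.66 (edgeR adjusted p = 0.0434) with the adjustment for transcript length and GC content. Its line lies within 60 lines of a damaged or repeated block of the file. DESeq2 called Nr1h3 lower as well, which encodes LXR-alpha and stood at -1.53 (edgeR adjusted p = 0.126). Mylip and Abca1 are both known LXR targets, and of these Abca1 passed the threshold while Mylip, at 0.25, did not. The difference between both genes was not tested. Abcg1, another sterol exporter of the same list, was at -0.03 (edgeR adjusted p = 0.954). Srebf1, on whose shorter isoform LXR is also known to act, was at -0.25 with its isoforms pooled (edgeR adjusted p = 0.492).

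**Figure D5:**
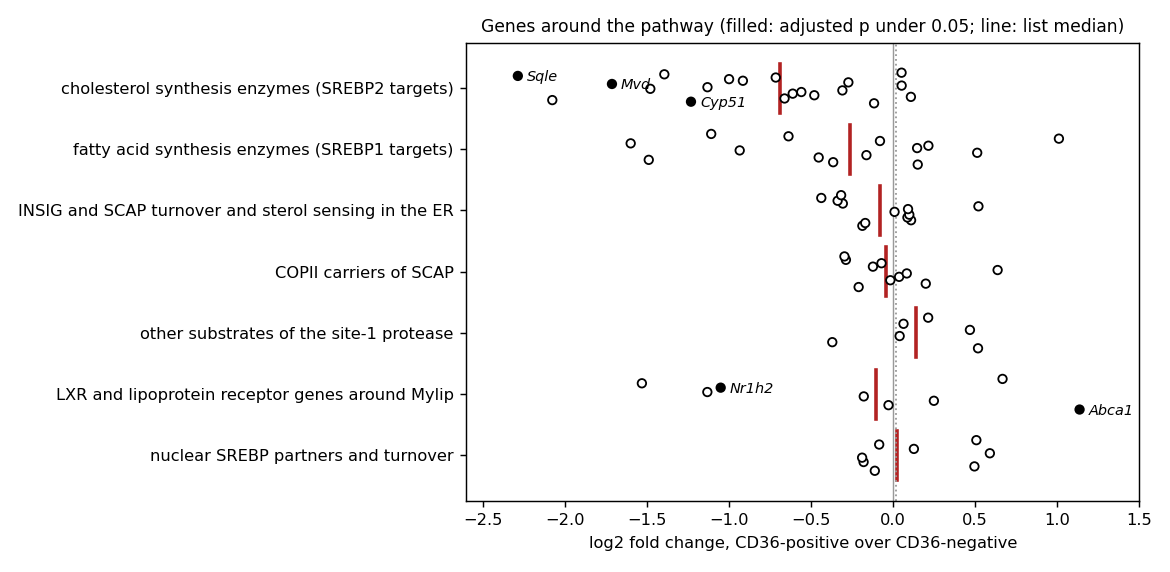
Log2 fold change of CD36-positive over CD36-negative cells (horizontal axis) for each tested gene of 7 lists around the pathway; filled points passed the threshold on the adjusted p, red lines are list medians and the dotted line is the median of all genes tested. The cholesterol synthesis enzymes have a median of -0.69 with 3 genes called, and the other medians lie between -0.26 and 0.14.

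Genes whose levels followed each of the 8 most closely from library to library were found by Pearson's r of log2 CPM after each group's mean was taken off, over 10 libraries and 7729 genes of at least 4 log2 CPM on average. They are the highest of 7729 values and share libraries and depth, so they are a description. For Srebf2 they were Elf1 (r 0.89), Polr2a (0.86) and Elf4 (0.86). For Srebf1 they were Nucb2 (0.94), Gsn (0.93) and Kcnn4 (0.93), and for Scap Chrac1 (0.91), Gna14 (0.88) and Mau2 (0.88). For Insig1 they were Mon2 (0.97), Tmem87b (0.95) and Rhbdd1 (0.93), and for Insig2 Golph3 (0.95), Helz2 (0.94) and Pdf (0.93). For Mbtps1 they were Arhgef10l (0.97), Kansl2 (0.95) and Rftn1 (0.94), for Mbtps2 Trp53inp1 (0.97), Clk4 (0.96) and Ugp2 (0.95), and for Mylip Usp35 (0.94), Taok2 (0.93) and Ip6k1 (0.93). Spearman's rho of these 24 ran from 0.72 to 0.98. None of the 8 genes was among the 3 closest of another: the highest r of the 28 pairs was 0.66 (Mbtps1 with Mylip), Srebf2 with Scap had 0.61, and the lowest was -0.60 (Scap with Mbtps2).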

How the data were processed

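RNA of 5 CD36-positive and 5 CD36-negative sorted samples was analysed; the series' single-cell and spatial data were not used here. The deposited table holds expected counts (estimates, so not always integers; 91.9% of values were integers) per gene symbol, not normalized. The submitters' processing notes name fastp 0.18.0, Bowtie2 2.2.8, HISAT2 2.1.0, StringTie 1.3.1 and build mm10 without their roles; which program counted the reads is not stated in any source used here. Of 22008 lines, 8 damaged and 131 repeated lines were dropped. No 2 libraries of a group agreed within sampling noise.

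Counts were rounded and fitted in edgeR 4.0.16 (R 4.3.3) with filterByExpr (minimum count 10), TMM scaling, a quasi-likelihood test of the 2 groups and Benjamini-Hochberg adjustment over all genes tested. The scripts were tested on simulated data. Intervals come from the SE and residual degrees of freedom. TPM used transcript lengths and gene coordinates from GENCODE (GRCm38); promoter and microRNA sequences came from RefSeq (GRCm38.p6).

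The 8 genes and all lists were chosen with earlier results of these data known. Named are all 8 genes and the 3 genes most like each of the 8. From the lists, members past the threshold are named, or otherwise the 2 with the smallest p. Nr1h3, Abcg1, Stard4, Thrsp, Mid1ip1 and the marker genes were named after their values were seen. Alternatives were other scalings, filters and thresholds, DESeq2 1.42.0, limma 3.58.1 voom, a replicate block, covariates, a correction for GC content and length, and fits without libraries; the leukocyte covariate was added after seeing the data.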

Additional observations from a re-analysis of the deposited data

How the results depend on the processing

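Srebf2 stayed lower and past the threshold in 24 of 25 alternative fits (log2 fold change -1.77 to -1.29); in a test against a change of 1 its edgeR adjusted p was 0.0606 and 0 of the 8 genes were called lower. With 1 library left out it ran from -1.75 to -1.53 (edgeR adjusted p 0.000353 to 0.00115), and the counts of 1 gene lower and 0 higher held in each of these 10 fits. With the leukocyte level as a covariate, an alternative added after seeing the data, 0 of the 8 were called lower and the log2 fold changes were -0.69 for Srebf2, -0.67 for Srebf1, 0.0270 for Scap, 0.39 for Insig1, 0.66 for Insig2, -1.52 for Mbtps1, 5.10 for Mbtps2 and -0.18 for Mylip; the leukocyte level and the group cannot be told apart. Samples with the same number in the description correlated at 0.03 to 0.13, and those with the same number in the title at -0.02 to 0.13. By description 4 of 8 libraries correlated best with their own number, and by title 3 of 10. Y-linked sums for description numbers 1, 2, 4 and 7 were 307, 207, 19.7 and 18.4 CPM in CD36-positive libraries. In CD36-negative libraries they were 184, 206, 57.6 and 48.3 CPM. Whether the numbers pair samples is not settled by these values, and the main test treated the libraries as unpaired. Under a replicate block Srebf2 was at -1.77 by description (edgeR adjusted p = 0.00229) and -1.65 by title (edgeR adjusted p = 0.000746). The sign of Insig2 turned with limma voom (-0.0792), under the replicate block by description (-0.36) and by title (-0.0805), with the number of detected genes (-0.27), without CD36-positive libraries 1 and 3 (-0.0820), and with 1 library left out it ran from -0.26 to 0.31. Mbtps2 turned with limma voom (-0.0522) and without CD36-positive libraries 1 and 3 (-0.26). The correction for GC content and length put the median of all genes at 0.14, Srebf2 at -1.29, Srebf1 at 0.16, Scap at -0.25, Insig1 at -0.0241, Insig2 at 0.18, Mbtps1 at 0.0437, Mbtps2 at 0.22 and Mylip at 0.47, with 451 genes lower and 614 higher, against 550 and 303; 2 cholesterol enzymes were then lower, without Mvd (-1.41, edgeR adjusted p = 0.0651), and Nr1h2 was at -0.66 (edgeR adjusted p = 0.0434). The count of cholesterol enzymes called lower was 6 with DESeq2, 1 at an adjusted p under 0.01, 0 in the test against a change of 1, 1 under the replicate block by title and 0 with the leukocyte covariate, and 1 to 4 with 1 library left out. In the LXR list 2 genes were lower with DESeq2, 0 lower at 0.01, 0 lower with lines near damage left out (Nr1h2 among them), and 0 lower and 0 higher against a change of 1 or with the leukocyte covariate. Over all genes the counts lower and higher were 862 and 615 with DESeq2, 214 and 6 against a change of 1, 330 and 90 at 0.01, 466 and 184 under the replicate block by description and 585 and 271 by title, 570 and 188 without CD36-positive libraries 1 and 3, and 422 to 583 and 132 to 380 with 1 library left out. The cause of these moves was not tested. The lowest count of any of the 8 genes was 63 (Insig2 in CD36-positive library 1), and Srebf2 had 81 to 167 counts in CD36-positive libraries.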
